A study of Mus musculus with 5 samples.

Results

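The mouse potassium channel genes were followed in pancreatic beta cells in which the cell cycle inhibitor p16INK4a had been switched on. All genes whose symbol starts with Kcn in the authors' deposited table were taken, 97 of 23951 genes. Of these, 77 encode pore-forming subunits and 17 encode auxiliary or regulatory subunits. The other 3, Kcnd3os, Kcnmb4os1 and Kcnq1ot1, are by name opposite-strand transcripts and not channel subunits. The p16 group held 3 samples, from Ins-rtTA/tet-GFP/tet-p16ink4a mice, whose beta cells expressed p16INK4a together with green fluorescent protein. The GFP group held 2 samples, from control Ins-rtTA/tet-GFP mice, which carry the same insulin-promoter-driven rtTA and the tet-GFP transgene without tet-p16ink4a. Animals of both groups received tetracycline for 10 days, and GFP-positive cells were sorted from dissociated islets. The ages of the mice are not given in the labels.

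Potassium channels set the resting voltage of a beta cell and end its electrical bursts. At low glucose the ATP-sensitive channel, KATP, built from Kcnj11 pores and Abcc8 sulphonylurea receptors, is open and holds the membrane polarised. ATP made from glucose closes it, calcium channels open and insulin is released. Two-pore channels carry a background leak, while voltage-gated and calcium-activated channels repolarise the membrane after each spike.

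Values are FPKM, fragments scaled by transcript length and library size, given by the authors as 1 value per group and gene. No value per sample was used, so no SD, replicate spread or depth can be stated, and whether 2 values differ is taken from the q-value in the authors' deposited table, with a call at a q below 0.05. The authors tested 13264 genes and 42 of the 97 Kcn genes. Cdkn2a, the p16INK4a gene, stood at 34.6 FPKM in the p16 group and 0.657 FPKM in the GFP group. Of 10 beta-cell markers, Ins1, Ins2 and Iapp carry a status for too many fragments and a value of 0, and the other 7 summed to 3605 FPKM with p16 and 4742 FPKM with GFP. Of these 7, 3 had the higher value with p16 and 4 the lower, and Slc2a2 alone was called, as lower. Markers of other cells were present too. The 4 delta-cell markers summed to 2782 FPKM with p16 and 1297 FPKM with GFP, of which 2 were called higher. The 2 PP-cell markers summed to 1217 FPKM with p16 and 569.5 FPKM with GFP, both called higher, and the 6 alpha-cell markers to 2781 FPKM with p16 and 2159 FPKM with GFP, with 1 called higher. The 5 stellate and fibroblast markers summed to 2.56 FPKM with p16 and 0.333 FPKM with GFP. Only Col1a2 of them was tested, at 1.60 and 0.0837 FPKM, and it was called higher. The 4 immune markers summed to 2.01 FPKM with p16 and 0.308 FPKM with GFP. Only Cd68 of them was tested, at 1.95 and 0.229 FPKM, and it was called higher (q = 0.0498 in the authors' deposited table). Of the untested immune markers, Ptprc had the higher value with p16, Lyz2 the lower, and Cd3e is listed at 0 in both groups. Among 5 duct markers, at 181.0 FPKM with p16 and 151.3 FPKM with GFP, 2 were called higher and 1 lower. Acinar markers, 5 in all, summed to 15.78 FPKM with p16 and 15.03 FPKM with GFP. Of these, 1 had the higher value with p16 and 4 the lower, and none was called. Neural and glial markers, 4 with 2 tested, summed to 5.249 FPKM with p16 and 6.132 FPKM with GFP, without a call. Endothelial markers, 4 and none tested, summed to 0.5246 FPKM with p16 and 0.5004 FPKM with GFP. The part of these other cells in the channel values below was not tested, and in sorted bulk cells a change in the share of a cell type and in the RNA per cell cannot be told apart.

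With p16, 5 Kcn genes were called higher and none lower. Of these, 4 encode two-pore channels, Kcnk10, Kcnk2, Kcnk3 and Kcnk12. Kcnk10 and Kcnk2 may have been tested only through their p16 values, which favours calls in that direction. The 5 are 11.9% of the 42 tested members. Of all tested genes, 4.32% were called higher and 1.10% lower. At an unadjusted p below 0.05 there, 9 members were higher and 2 lower, beside 10.2% higher and 7.01% lower of all tested genes. With the authors' p adjusted over every gene of the table in place of the tested genes, Kcnk2 and Kcnk12 no longer passed (adjusted p = 0.0715 and 0.0805). The abundant channels of the beta cell, Kcnk16 and Kcnj11 among them, were not called. Of the 42 tested members, 29 had the higher value with p16 and 13 the lower, while 48.4% of all tested genes had the higher value with p16. Below a mean of 1 FPKM, 63.6% of tested members and 62.2% of all tested genes had the higher value with p16. From 1 to 10 FPKM the shares were 72.7% and 51.2%, and at 10 FPKM and above 66.7% and 42.9%. The members' median log2 ratio was 0.23, against -0.02 over all tested genes. With a trend of the ratio with transcript GC content and length removed, the split was 22 to 20 and the members' median log2 ratio 0.03.

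**Figure D1:**
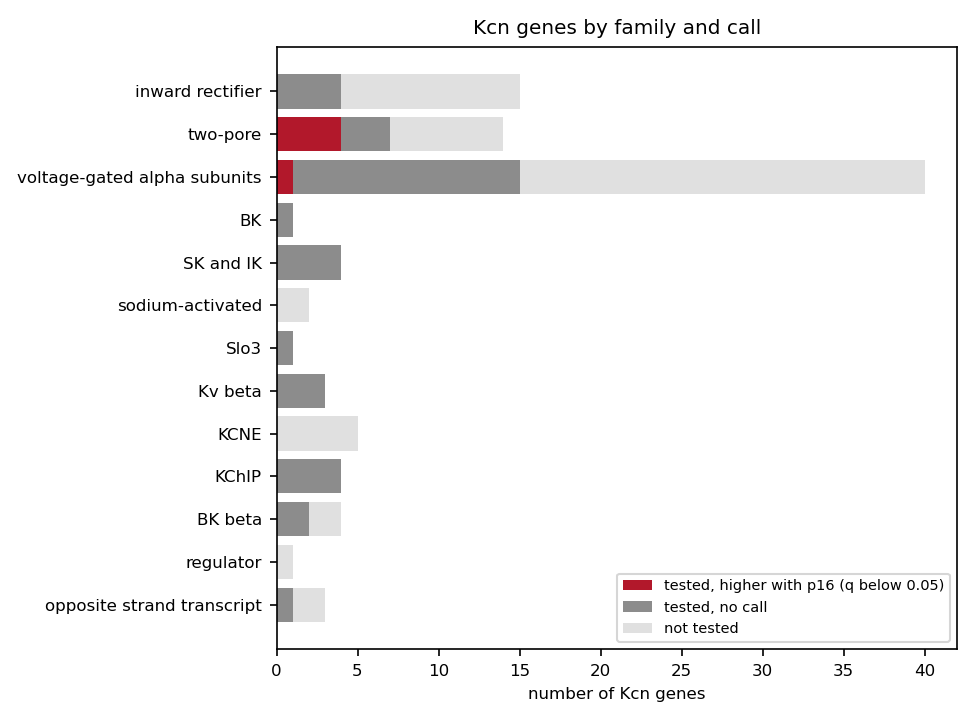
Number of Kcn genes in each family, split into genes called higher with p16 (red), tested without a call (dark grey) and not tested (light grey). The two-pore bar holds 4 of the 5 calls, and no KCNE gene was tested.

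The promoters of 3 of the 4 called two-pore genes, Kcnk10, Kcnk12 and Kcnk2, are shown to set out their base composition. Beside them is that of Kcnk16, the most abundant Kcn gene in both groups. They are RefSeq windows of 300 bases on the GRCm38.p6 build, from 250 bases before to 50 after a transcription start, written 5′ to 3′ on the gene's strand, with each CpG in capitals. Kcnk10 and Kcnk2 have 2 and 4 such windows. For Kcnk10 the one with more CpG is printed. For Kcnk2, where 2 windows tie at 33 CpG, the one with the higher start coordinate is printed, which also has the higher GC content. They are Kcnk10 at chr12:98575078-98575377, minus strand, Kcnk12 at chr17:87797945-87798244, minus strand, Kcnk2 at chr1:189343658-189343957, minus strand, and Kcnk16 at chr14:20269220-20269519, minus strand.
Kcnk10: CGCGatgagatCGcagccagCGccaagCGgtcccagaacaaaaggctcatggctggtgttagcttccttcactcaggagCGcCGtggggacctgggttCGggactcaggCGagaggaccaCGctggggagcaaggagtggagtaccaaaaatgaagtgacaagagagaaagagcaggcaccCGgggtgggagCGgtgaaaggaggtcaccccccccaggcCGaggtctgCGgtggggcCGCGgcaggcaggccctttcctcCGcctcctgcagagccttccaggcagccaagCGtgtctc
Kcnk12: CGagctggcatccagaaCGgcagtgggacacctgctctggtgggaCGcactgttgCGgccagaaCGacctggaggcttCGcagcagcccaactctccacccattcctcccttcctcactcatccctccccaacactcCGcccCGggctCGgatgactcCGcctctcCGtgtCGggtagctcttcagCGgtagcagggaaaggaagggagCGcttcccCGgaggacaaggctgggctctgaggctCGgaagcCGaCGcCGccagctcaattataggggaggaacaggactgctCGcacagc
Kcnk2: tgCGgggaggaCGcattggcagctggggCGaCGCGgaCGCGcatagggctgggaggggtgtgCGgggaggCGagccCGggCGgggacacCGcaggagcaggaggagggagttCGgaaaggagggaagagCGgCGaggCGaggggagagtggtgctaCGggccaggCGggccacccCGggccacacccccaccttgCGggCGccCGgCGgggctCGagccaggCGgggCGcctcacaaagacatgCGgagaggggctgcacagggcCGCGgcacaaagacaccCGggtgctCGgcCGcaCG
Kcnk16: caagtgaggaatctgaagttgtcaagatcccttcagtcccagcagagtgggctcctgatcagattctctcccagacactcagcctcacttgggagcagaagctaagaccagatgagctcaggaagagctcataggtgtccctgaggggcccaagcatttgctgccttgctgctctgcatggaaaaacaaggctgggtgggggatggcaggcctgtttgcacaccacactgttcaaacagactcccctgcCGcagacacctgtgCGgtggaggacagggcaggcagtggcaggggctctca

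The Kcnk10, Kcnk12 and Kcnk2 windows hold 18, 20 and 33 CpG, and the Kcnk16 window holds 2. The window of Kcnk10 not printed holds 7 CpG, and those of Kcnk2 hold 33, 3 and 6. The median is 9 CpG over the 96 Kcn windows and 7 over all 32851 windows, none of them chosen for CpG. GC content was 64.3% for Kcnk10, 64.3% for Kcnk12, 74.7% for Kcnk2 and 57.0% for Kcnk16. Windows matched 71 of the 97 genes. Taking the window with most CpG for each gene, the median was 20 CpG for the 3 called genes that matched, 16 for 26 tested members without a call, 11 for 42 untested members and 8 for all 27025 genes with a window. The ranges overlapped, at 18 to 33 for the called, 1 to 49 for those without a call and 0 to 48 for the untested. This choice favours genes with several windows, such as Kcnk10 and Kcnk2. The E2F letters TTTGGCGC or TTTCCCGC, on either strand, occurred in 4 of 96 Kcn windows, or 4.17%, and in 1.56% of all windows. Those 4 windows belong to Kcna3, Kcna6, Kcnh5 and Kcnip3, none of them a called gene. The GC box GGGCGG, on either strand, was in 46.9% of Kcn windows and 35.7% of all windows. The cyclic AMP response element TGACGTCA was in 0 of 96 Kcn windows and 1.79% of all windows.

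Two-pore channels are dimers whose subunits each carry a pair of pore loops, and they fall into subfamilies named TWIK, TREK, TASK, TALK, THIK and TRESK. Of 14 Kcnk genes, 7 were tested, all 7 had the higher value with p16, and 4 were called. Kcnk10 and Kcnk2, counted in the 7 and in the 4, may have been tested only through their p16 values. That favours the higher direction in both counts and in the family median below. Of all tested genes, 48.4% had the higher value with p16 and 4.32% were called higher. With the GC and length trend removed, Kcnk16 turned to a log2 ratio of -0.06 and the other 6 two-pore genes stayed above 0. They stood at 0.24 for Kcnk1, 0.53 for Kcnk12, 0.71 for Kcnk13, 0.97 for Kcnk3, 2.37 for Kcnk2 and 2.84 for Kcnk10. With the trend kept, the median log2 ratio of the 7 was 1.10, against 0.20 for the 35 tested Kcn genes of other families. The family made up 53.0% of the summed Kcn FPKM with p16 and 51.6% with GFP, most of it from Kcnk16.

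In the TREK subfamily, whose channels open to stretch and to polyunsaturated lipids, both tested genes rose. Kcnk10 reached 1.29 FPKM in the p16 group, against 0.181 FPKM in the GFP group, a 7.13-fold difference (q = 0.00441 in the authors' deposited table). In mm9 the gene spans chromosome 12, 99672204 to 99816150. Kcnk2 stood at 0.452 FPKM with p16 and 0.0838 FPKM with GFP, 5.40-fold (q = 0.0396 in the authors' deposited table), and lies on chromosome 1, 191031809 to 191226152. Both started from levels near 0, so the size of the change depends on how low values are treated. Both may also have been tested only through their p16 values, as their GFP values lie below the highest of an untested member, 0.416 FPKM. With a pseudocount of 1 FPKM the log2 ratio of Kcnk10 was 0.95 in place of 2.83, and that of Kcnk2 was 0.42 in place of 2.43. Kcnk4, the other TREK gene, was not tested, at 0.0141 FPKM with p16 and listed at 0 with GFP.

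In the TASK subfamily, acid-sensitive leak channels, Kcnk3 stood at 4.61 FPKM in the p16 group and 1.76 FPKM in the GFP group, 2.61-fold (q = 0.00245 in the authors' deposited table). That is the smallest q there, held by 271 tested genes, Kcnk3 among them. The gene lies on chromosome 5, 30876360 to 30927643, and its locus overlaps Gm9899, listed at 0.0201 FPKM with p16 and 0.0412 FPKM with GFP. Kcnk9 and Kcnk15, of the same subfamily, were not tested. Kcnk9 stood at 0.0124 FPKM with p16 and 0.0196 FPKM with GFP, and Kcnk15 is listed at 0 in both.

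The THIK genes encode halothane-inhibited channels. Kcnk12 reached 11.3 FPKM with p16, against 5.30 FPKM with GFP, 2.14-fold (q = 0.0446 in the authors' deposited table), and lies on chromosome 17, 88145161 to 88197334. Kcnk13 stood at 1.49 FPKM with p16 and 0.770 FPKM with GFP, 1.94-fold, and was not called (q = 0.208 in the authors' deposited table). Both THIK genes thus had values close to 2 times as high with p16, while 1 of them passed. Kcnk12 was the most abundant of the called Kcn genes in both groups.

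The most abundant two-pore genes were not called. Kcnk16, the alkaline-activated TALK channel enriched in islets, stood at 277 FPKM with p16 and 257 FPKM with GFP (q = 0.908 in the authors' deposited table). It alone held 44.4% of the summed Kcn FPKM with p16 and 45.1% with GFP. Its neighbour Kcnk5, 80973 bases away on chromosome 14 and also of the TALK subfamily, was listed at 0.00998 FPKM with p16 and 0.00537 FPKM with GFP and was not tested. Kcnk1, a TWIK channel, stood at 34.1 FPKM with p16 and 28.5 FPKM with GFP (q = 0.696 in the authors' deposited table). The other TWIK genes, Kcnk6 and Kcnk7, were not tested, at 0.375 and 0.0899 FPKM with p16 and 0.368 and 0.0595 FPKM with GFP. The TRESK gene Kcnk18 was listed at 0.0148 FPKM with p16 and at 0 with GFP.

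**Figure D2:**
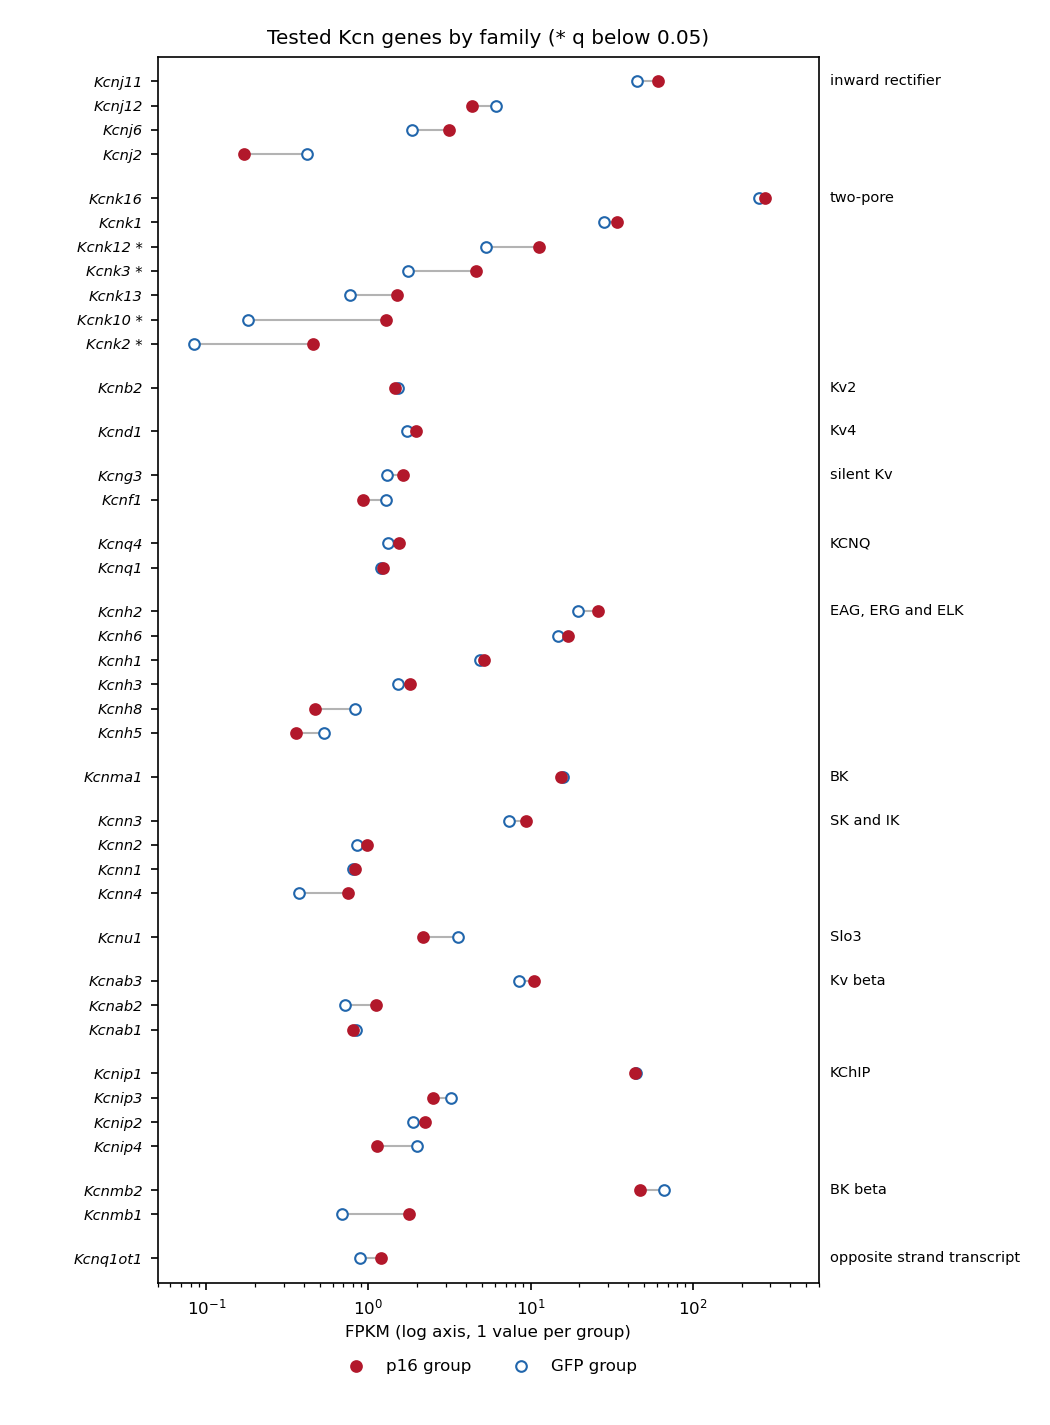
FPKM on a log axis of tested Kcn genes, 39 of the 42, by family, with the p16 group in filled red and the GFP group in open blue circles, 1 value per group and no error. Starred genes were called; the 7 two-pore genes all have the red circle to the right in these values as deposited (Kcnk16 turns with the GC and length trend removed), by the widest gap for Kcnk10.

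The KATP channel genes were not called. Kcnj11, the KATP pore, stood at 60.8 FPKM in the p16 group and 45.2 FPKM in the GFP group, 1.35-fold (q = 0.425 in the authors' deposited table). By level it was number 2 among Kcn genes with p16 and number 3 with GFP. Its mm9 position is chromosome 7, 53352493 to 53356134. Its partner Abcc8, the sulphonylurea receptor of beta cells, stood at 213 FPKM with p16 and 200.3 FPKM with GFP (q = 0.937 in the authors' deposited table). The vascular pair was near 0, with Kcnj8 at 0.0106 FPKM with p16 and listed at 0 with GFP, and Abcc9 at 0.178 FPKM with p16 and 0.0896 FPKM with GFP.

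Of 14 further inward rectifiers, 3 were tested and none was called, beside 4.32% called higher and 1.10% lower of all tested genes. Kcnj12, of the classical strong rectifiers, stood at 4.34 FPKM with p16 and 6.13 FPKM with GFP (q = 0.403 in the authors' deposited table). Kcnj2, of the same kind, had 0.170 FPKM with p16 and 0.416 FPKM with GFP, the lowest log2 ratio of any tested Kcn gene at -1.29, with an unadjusted p of 0.0178 and a q of 0.165 in the authors' deposited table. The G-protein-gated channel gene Kcnj6, whose channels carry part of the inhibition of insulin release by adrenaline and somatostatin, stood at 3.12 FPKM with p16 and 1.86 FPKM with GFP, with an unadjusted p of 0.0432 and a q of 0.272 in the authors' deposited table. Its possible partners Kcnj3, Kcnj5 and Kcnj9 were not tested, at 0.0900, 0.243 and 0.0174 FPKM with p16 and 0.0472, 0.179 and 0.0215 FPKM with GFP. The untested Kcnj13 was listed at 0.351 FPKM with p16 and 0.119 FPKM with GFP, and its locus overlaps Gigyf2.

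Voltage-gated alpha subunits numbered 40, of which 15 were tested, 11 had the higher value with p16 and 1 was called. Of all tested genes, 48.4% had the higher value with p16, and 4.32% were called higher and 1.10% lower. Kcnc1, of the fast delayed rectifiers, was not tested, at 0.319 FPKM with p16 and 0.115 FPKM with GFP. Kcnb2, a slow delayed rectifier, had 1.46 FPKM with p16 and 1.52 FPKM with GFP (q = 0.965 in the authors' deposited table).

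The EAG, ERG and ELK families have 8 genes, of which 6 were tested and none was called, beside 4.32% called higher and 1.10% lower of all tested genes. These families include the most abundant voltage-gated Kcn alpha subunit genes of both groups. Kcnh2 and Kcnh6, of the ERG group that shapes repolarisation, stood at 25.8 and 17.1 FPKM with p16 and 19.5 and 14.8 FPKM with GFP (q = 0.464 and 0.783 in the authors' deposited table). Kcnh1, of the EAG group, stood at 5.17 FPKM with p16 and 4.84 FPKM with GFP. Kcnh8 and Kcnh5 had the lower value with p16, at 0.469 and 0.356 FPKM, against 0.825 and 0.533 FPKM with GFP, and neither was called (q = 0.430 and 0.604 in the authors' deposited table).

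KCNQ genes encode slow, non-inactivating channels. Of 5, 3 were tested and none was called, beside 4.32% called higher and 1.10% lower of all tested genes. Kcnq1 stood at 1.23 FPKM with p16 and 1.19 FPKM with GFP (q = 0.996 in the authors' deposited table). It shares its locus with Kcnq1ot1, its imprinted opposite-strand transcript, at 1.19 FPKM with p16 and 0.890 FPKM with GFP, and strand handling is not given, so reads of this pair cannot be told apart. None of the 8 Kv1 genes was tested; the highest value among them was 0.267 FPKM, of Kcna2 with GFP, and Kcna3 and Kcna10 are listed at 0 in both groups. Kcnd1 was the tested Kv4 gene, at 1.95 FPKM with p16 and 1.72 FPKM with GFP, while Kcnd3 stood at 0.0198 FPKM with p16 and 0.00490 FPKM with GFP and was not tested. Of the 10 silent subunits, which only work together with other Kv subunits, Kcng3 and Kcnf1 were tested, at 1.64 and 0.924 FPKM with p16 and 1.30 and 1.28 FPKM with GFP.

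**Figure D3:**
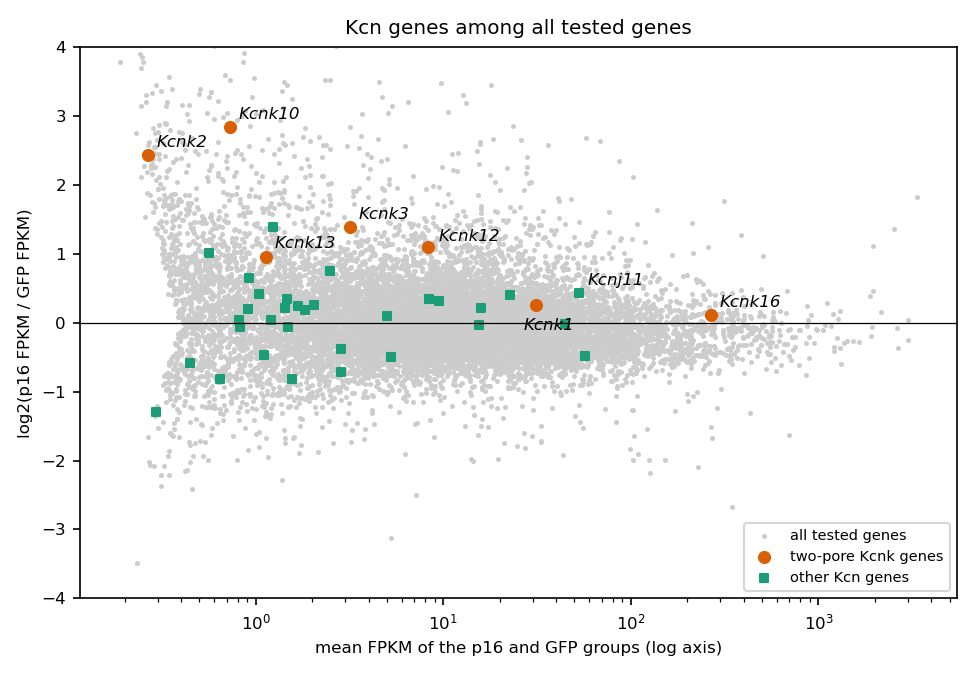
Log2 ratio of p16 over GFP FPKM against the mean FPKM of both groups (log axis) for the tested genes, with two-pore genes as orange circles and other Kcn genes as green squares, 39 of the 42 tested Kcn genes in all. Not drawn are 31 tested genes beyond 4 on the log2 axis and the tested genes without a ratio, listed at 0 in a group. Kcnk10 and Kcnk2 lie at the low end of the level axis, and Kcnk16 lies far to the right at a log2 ratio of 0.11.

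Calcium-activated channels repolarise the cell after calcium entry. All 5 of their genes were tested and none was called, beside 4.32% called higher and 1.10% lower of all tested genes. Kcnma1, the large-conductance BK pore, stood at 15.4 FPKM with p16 and 15.8 FPKM with GFP (q = 0.973 in the authors' deposited table). Among the small- and intermediate-conductance genes, Kcnn3 was highest, at 9.36 FPKM with p16 and 7.37 FPKM with GFP, and Kcnn1 stood at 0.823 FPKM with p16 and 0.804 FPKM with GFP. Kcnn4 had 0.750 FPKM with p16 and 0.373 FPKM with GFP, 2.01-fold (q = 0.375 in the authors' deposited table). The related Kcnu1, known as a sperm channel gated by alkaline pH, stood at 2.15 FPKM with p16 and 3.54 FPKM with GFP, with an unadjusted p of 0.0314 and a q of 0.228 in the authors' deposited table.

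Of 17 auxiliary genes, 9 were tested, none was called in either direction and none had an unadjusted p below 0.05. Of all tested genes, 4.32% were called higher and 1.10% lower, and 10.2% were higher and 7.01% lower at that unadjusted p. The auxiliary genes summed to 112 FPKM with p16 and 129 FPKM with GFP, and their median log2 ratio was -0.02. Kcnmb2, an inactivating beta subunit of BK channels, was the second most abundant Kcn gene with GFP and stood at 47.4 FPKM with p16 and 66.6 FPKM with GFP (q = 0.343 in the authors' deposited table). Kcnip1, a calcium-binding partner of Kv4 channels, stood at 44.1 FPKM with p16 and 44.6 FPKM with GFP (q = 0.985 in the authors' deposited table). Kcnmb1, which lies in the same listed locus as Kcnip1, had 1.78 FPKM with p16 and 0.682 FPKM with GFP (q = 0.760 in the authors' deposited table). Its 2.61-fold ratio was thus as large as that of the called Kcnk3, without a call. Kcnab3, a cytoplasmic Kv beta subunit, stood at 10.5 FPKM with p16 and 8.46 FPKM with GFP (q = 0.633 in the authors' deposited table). The 5 KCNE genes, single-pass partners of KCNQ and other channels, were all untested, with none above 0.164 FPKM.

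Most Kcn genes were listed at 0 or near it. The 55 untested members had no value above 0.416 FPKM. Of these, 9 are listed at 0 in both groups and 36 are above 0 in both. Another 8, Kcna4, Kcnd3os, Kcne4, Kcng4, Kcnh7, Kcnj8, Kcnk18 and Kcnk4, are listed at 0 in the GFP group only, and Kcng1 and Kcnq3 in the p16 group only. No fold is given for these. At least 1 FPKM was reached by 32 members with p16 and 28 with GFP, and at least 10 FPKM by 11 with p16 and 8 with GFP. The summed FPKM of all 97 was 624 with p16 and 569.7 with GFP.

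The calls lay at low and middle levels. Of 11 tested members with a mean below 1 FPKM, Kcnk10 and Kcnk2 were called higher, and of 22 with a mean from 1 to 10 FPKM, 3 were, Kcnk3 and Kcnk12 among them. With GFP, Kcnk10 and Kcnk2 stood at 0.181 and 0.0838 FPKM, below the highest value of an untested member, 0.416 FPKM. Both may thus have been tested only through their p16 values, which favours calls in that direction. Of 9 members at 10 FPKM and above, none was called, and at an unadjusted p below 0.05 1 of the 9 was higher in the authors' deposited table and none was lower, beside 7.59% higher and 7.79% lower of all tested genes at that level. Over all tested genes the share called higher was 6.85% below 1 FPKM, 4.87% from 1 to 10 FPKM and 3.29% above, and the share called lower was 0.403%, 0.907% and 1.42%.

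Over the whole table, calls moved with GC content. The longest transcripts of all genes called higher had a median GC content of 53.3%, those of genes called lower 43.6%, and those of all tested genes 49.7%. For the tested Kcn genes the median was 53.1%. The called two-pore genes had 69.4% for Kcnk12, 59.1% for Kcnk3, 51.2% for Kcnk2 and 46.5% for Kcnk10. The fifth of tested genes with the highest GC content held 13 tested Kcn genes, of which 3 were called, Kcnk12 and Kcnk3 among them; of all 2628 genes there, 8.33% were called higher. With the trend with GC content and length removed, the log2 ratio was 0.53 in place of 1.10 for Kcnk12 and 0.97 in place of 1.39 for Kcnk3. It was 2.84 for Kcnk10 and 2.37 for Kcnk2, close to their values with the trend kept. Whether base composition has a part in the calls was not tested.

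**Figure D4:**
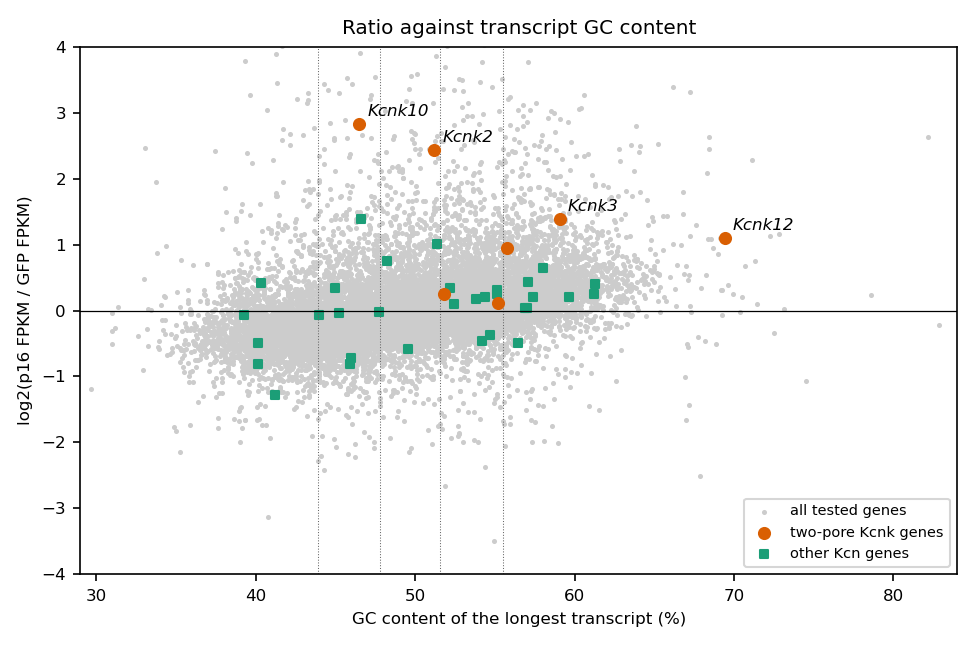
Log2 ratio of p16 over GFP FPKM against the GC content of the longest transcript, for tested genes (grey), two-pore genes (orange circles) and other Kcn genes (green squares), 39 of the 42 tested Kcn genes in all; dotted lines part the tested genes into 5 bins of about equal size. Kcnk12 and Kcnk3 lie in the highest bin, and Kcnk10 and Kcnk2 lie in lower bins. Genes without a ratio or a GC value, and those beyond 4 on the log2 axis, are not drawn.

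The Kcn genes lie on 19 chromosomes, and 8 pairs of separate loci are within 100000 bases of each other. In no such pair were both genes tested, so neighbours could not be compared by call. On chromosome 11, Kcnj2 stood at 0.170 FPKM with p16 and 0.416 FPKM with GFP, while Kcnj16, 38196 bases away, stood at 0.183 FPKM with p16 and 0.140 FPKM with GFP. Loci of 16 Kcn genes overlap another gene of the table, and Kcnk3 is the only called member among them.

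Of 28 partners of glucose sensing and excitability outside the Kcn genes, 23 were tested, 1 was called higher and 2 lower, beside 4.32% higher and 1.10% lower of all tested genes. Slc2a2, the glucose transporter gene, and Trpm5, a calcium-activated cation channel gene, were the 2 called lower, at 205 and 17.7 FPKM with p16 and 402 and 42.6 FPKM with GFP. None of 9 tested calcium channel subunit genes was called; Cacna1a stood at 14.1 FPKM with p16 and 8.98 FPKM with GFP, and Cacna1d at 14.8 FPKM with p16 and 14.1 FPKM with GFP. Of these 9, 3 were higher and 1 lower at an unadjusted p below 0.05 in the authors' deposited table, beside 10.2% higher and 7.01% lower of all tested genes. None of 5 sodium channel subunit genes was called or had an unadjusted p below 0.05.

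**Figure D5:**
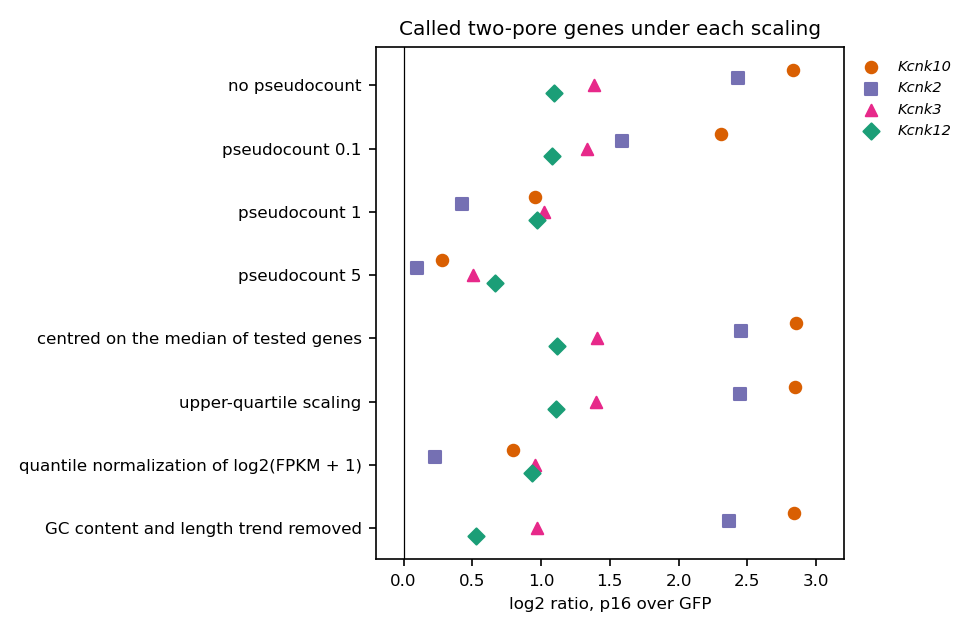
Log2 ratio of p16 over GFP for the 4 called two-pore genes (marker shapes) under each treatment of low values, scaling and GC content (rows). All points are above 0, and Kcnk10 and Kcnk2 move most with the pseudocount, to 0.28 and 0.10 at a pseudocount of 5 FPKM.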

How the data were processed

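RNA-seq of sorted beta cells was deposited by the authors in a single Cuffdiff-style file. Per the submitters' processing notes, TopHat2, Cuffnorm and Cuffdiff were used on mm9. No version, annotation or library scaling is stated, nor whether counting used strand. The deposited FPKM values, 1 per group, are relative to transcript length and library size. Low values rest on few fragments and depth per sample is unknown. The deposited p-values and q-values come from the authors' test over 3 p16 and 2 GFP samples. The labels do not say that each sample is a separate mouse, so these p-values may measure technical spread. Benjamini-Hochberg adjustment of the 13264 tested p-values gave the deposited q-values to within 5.23e-07, and the p-values do not go below 5e-05.

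limma on values per sample had been planned, but the table holds group values, so the authors' calls are described, as planned for that case. Ratios were recomputed from FPKM without a pseudocount, since some deposited cells hold text. Starts are counted from 0 in the table, as 266 of 267 microRNA genes showed by length, and 1 was added. For GC content and length, the longest GENCODE M21 transcript of a gene was used, which matched 99.1% of tested genes; their trend was fitted with natural cubic splines of 4 degrees of freedom each. Scripts were tested on simulated data. Python 3.11.15, numpy 2.4.6, pandas 2.3.3, patsy and matplotlib 3.10.9 were used. Named genes are those with an unadjusted p below 0.05, the 15 most abundant and a list of known beta-cell channel genes, with further family members given to complete each family, these chosen after their values were seen; a few genes that meet the rule are not reported here. The members and lists were chosen with earlier results of these data known.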

Additional observations from a re-analysis of the deposited data

How the results depend on the processing

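No paired analysis was possible because the table holds 1 value per group; for the same reason no sample could be left out in turn. The 5 Kcn genes called higher became 2 at a q below 0.01 (Kcnk10 and Kcnk3) and 6 at 0.1. With the authors' p adjusted again they were 3 over genes with a mean of at least 1 FPKM and 1 over those of at least 5 FPKM, which leave out the lower members, and 3 over every gene of the table, where Kcnk12 and Kcnk2 no longer passed (adjusted p = 0.0805 and 0.0715). Without members that share a locus they were 4. Split by mean FPKM, a division chosen after seeing the data, they were 2 below 1, 3 from 1 to 10 and 0 at 10 and above. No Kcn gene was called lower in any of these settings. On the log2 scale the members' median ratio, 0.228, became 0.0718 when 5 FPKM was added to every value, 0.0869 with quantile normalization of log2(FPKM + 1), which also carries a pseudocount, and 0.0320 with the GC and length trend removed. With pseudocounts of 0.1 and 1, centring, upper-quartile scaling and floors of 1 and 5 FPKM it lay between 0.160 and 0.247. The ratio of none of the 5 called genes changed sign. The unknown depth limits what can be read from members below 1 FPKM.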
